A study of Mus musculus with 14 samples.

Results

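Wild-type ribosome-bound RNA was compared with total RNA from the same testes. The comparison used 6 of the 14 libraries of the series, an input and an immunoprecipitated (IP) library from each of 3 mice (animals 121, 140 and 17), paired by the animal number in the sample titles. Adad2 +/+ males on the C57BL/6 strain, heterozygous for both Rpl22-HA and Stra8-iCre, were sampled at 21 days post partum, and the other 8 libraries came from 4 Adad2 M/M males that carried the same Rpl22-HA and Stra8-iCre alleles. Input RNA was taken from the whole testis lysate, and IP RNA was recovered from that lysate with an antibody to the HA tag. Genes with 10 or more estimated counts in all 6 libraries were kept, which left 13867 of the 53337 annotated genes with a row in the tables (32641 were above 0 in any of the 6 libraries), and 5528 assembled testis transcripts and 43 other transcripts were tested beside them, 19438 features in all.

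In RiboTag mice, Cre recombinase switches the large ribosomal subunit protein RPL22 to a form with an HA tag, so that an antibody to the tag recovers ribosomes, with the RNA they hold, from the cells that have expressed Cre. The Stra8 promoter drives Cre in differentiating spermatogonia, and spermatocytes and spermatids descend from those cells, whereas Sertoli, Leydig, peritubular myoid and immune cells keep untagged ribosomes. Male germ cells are known for making many mRNAs well before the protein is made, and such mRNAs are held outside polysomes until later stages. A ratio of IP to input therefore depends on the cells in which a transcript lies and on how much of it is bound by ribosomes, and in these bulk samples those contributions cannot be told apart. Likewise, fewer cells of a type and less RNA per cell cannot be told apart.

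Total counts ranged from 25037234 to 30871330 per library. Synthetic spike-in RNAs took 0.609 to 0.764% of the counts in input and 2.04 to 2.50% in IP. At this similar depth, 25332 to 27816 annotated genes were above 0 in the input libraries and 19668 to 21894 in the IP libraries. The filter acted unevenly for that reason: 3769 annotated genes had 10 or more counts in all 3 inputs but not in all 3 IPs, and 530 had the reverse, so the tested genes leave out many of the transcripts poorest in IP.

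Of the 19438 features tested, 5576 were higher in IP (28.7%) and 5724 were lower (29.4%) at an adjusted p under 0.05 (edgeR's quasi-likelihood test with the animal as a block, Benjamini-Hochberg adjustment), 58.1% in all. Among annotated genes 33.1% were higher and 26.2% lower, and among the 12320 protein-coding genes 36.3% were higher and 22.8% lower. With upper-quartile factors the split over all features moved to 4487 higher and 7019 lower, with unscaled totals to 4590 and 6867, with library sizes taken from protein-coding genes to 3371 and 8608, and with limma on log2(TPM + 1) to 8513 and 2351. The median log2 IP/input ratio of all features was -0.07, and it became -0.31, -0.29, -0.56 and 0.44 under those settings, of which the last changes the unit and the test as well as the scaling. Each ratio below is therefore to be read against -0.07, and that of a protein-coding gene also against the median of such genes, 0.20. Because every log2 ratio moves with the scaling, a ratio no larger than these shifts has no sign that is independent of the processing. The ratio also rose with level. In the quintile of protein-coding genes with the highest mean level 64% were higher and 16% lower, with a median of 0.60. Lists of abundant genes are to be read beside those values. The groups also failed to overlap (every IP above or below every input) in 66.4% of all features, 32.3% with IP higher and 34.1% with IP lower, and in 69.3% of protein-coding genes, 41.6% and 27.7%, so the lack of overlap given below for single genes is common in these libraries.

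Transcript classes differed most plainly in their shares of the library counts, which need no scaling factor (counts of spike-ins left out). The shares of a library sum to a fixed total, however, so a fall in any class raises the shares of the others. Protein-coding genes took 67.6, 68.1 and 68.1% of the counts in the inputs of animals 121, 140 and 17, and 82.0, 82.4 and 82.2% in their IPs. The misc_RNA class, whose only 3 tested genes were copies of 7SL RNA and the 7SK RNA gene, took 8.66, 10.2 and 11.5% in input and 0.624, 0.856 and 0.283% in IP. 7SL RNA is the RNA core of the signal recognition particle, and 7SK RNA holds the elongation factor P-TEFb in the nucleus. In both classes, no IP value overlapped an input value. With 3 pairs, an exact two-sided sign-flip test cannot give a p below 0.25, so shares are reported without a test.

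**Figure D1:**
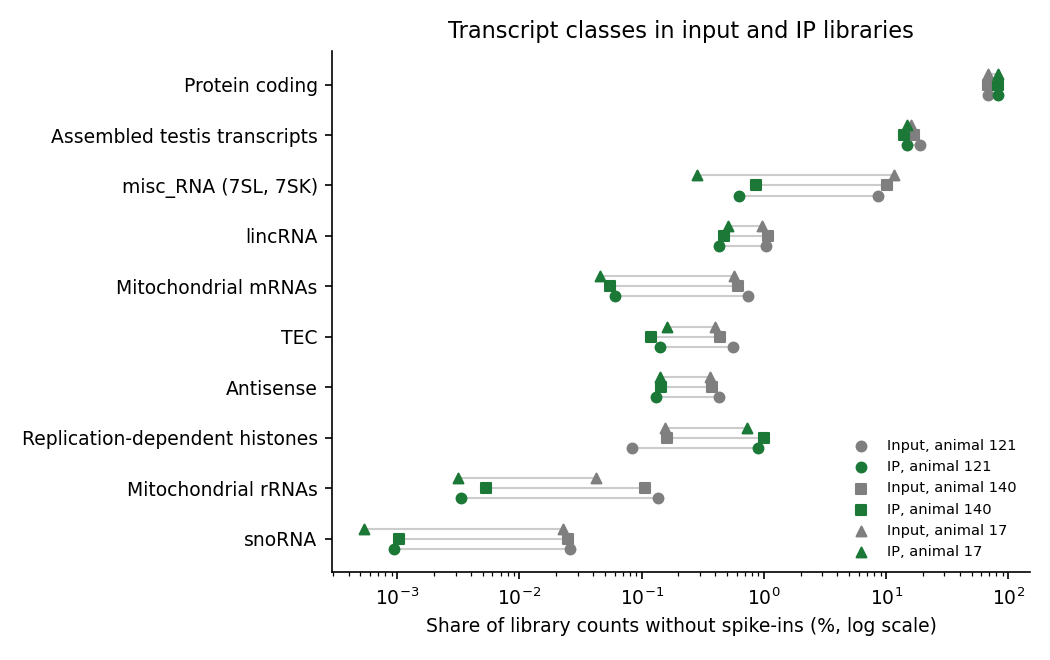
Share of library counts (%, log scale) taken by each transcript class in the input (grey) and IP (green) libraries, with a marker shape for each of the 3 wild-type animals and a line joining the libraries of an animal. Protein-coding and histone shares lay to the right in IP, and the shares of misc_RNA, lincRNA, antisense, TEC, mitochondrial RNAs and snoRNA lay to the left in every animal.

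Several noncoding classes were poor in IP. Long intergenic noncoding RNAs (lincRNA) took 1.03% ± 0.0607 of the counts in input and 0.470% ± 0.0399 in IP (SD, n = 3), and antisense RNAs took 0.390% ± 0.0364 and 0.139% ± 0.0071. Gene by gene, 213 of 373 tested lincRNAs were lower and 11 were higher, with a median log2 ratio of -1.27. Of 243 antisense genes 138 were lower and 4 higher, with a median of -1.16, and of 271 TEC loci, gene models that still await experimental support, 193 were lower and 1 was higher, with a median of -1.41. Assembled testis transcripts, whose coding status the tables do not give, had 2076 lower and 970 higher of 5528 and a median of -0.58. These medians stayed below the median of all features under every alternative tried, although that of the assembled transcripts came to -0.00 and -0.02 on the TPM scales. Other classes differed. Processed pseudogenes took 0.677% ± 0.0705 of the counts in input and 0.881% ± 0.0056 in IP, although 104 of 269 tested were lower and 69 higher. Both of the 2 tested miRNA genes were higher, and the IP/input ratio of the rRNA share ran from 0.341 to 3.89 over the animals.

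Structural and nuclear RNAs stood at the low end. All 10 tested members of that list were lower in IP, with a median log2 ratio of -2.44. Rn7sk, the 7SK RNA gene (chr9:78175303-78175633 of GRCm38, minus strand), had 16240, 19950 and 19600 CPM (counts scaled to library size with TMM factors) in the inputs of animals 121, 140 and 17, and 485, 586 and 429 CPM in the IPs. Its log2 ratio was -5.22 ± 0.13 (SE, n = 3 pairs, edgeR adjusted p = 1.27e-05). The level in IP was far below the lowest input in every animal.

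Rn7s1 and Rn7s2, copies of the 7SL gene that share their reads and so had the same values, fell from 31710 to 44470 CPM in input to 1271 to 4262 CPM in IP, a log2 ratio of -3.83 ± 0.52. Rmrp, the RNA of the mitochondrial RNA-processing ribonuclease, had a ratio of -4.98 ± 0.41, and Rpph1, the RNA of ribonuclease P, one of -2.92 ± 0.31. Both overlap a protein-coding gene, Ccdc107 on the opposite strand for Rmrp and Ccnb1ip1 on the same strand for Rpph1. Malat1, a nuclear lincRNA that concentrates at splicing speckles, had 1454 to 1829 CPM in input and 473 to 514 CPM in IP (log2 ratio -1.75 ± 0.09). Scarna10, a small Cajal body RNA, had 188 to 204 CPM in input and 4.32 to 10.4 CPM in IP (-4.81 ± 0.25), whereas Ncapd2, the protein-coding host gene within which it lies, had a ratio of 1.58 ± 0.10.

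RNAs of the mitochondrial genome were also poor in IP, where cytosolic ribosomes carry the tag and mitochondrial mRNAs are read by ribosomes of the organelle. Mitochondrially encoded mRNAs took 0.742, 0.614 and 0.572% of input counts and 0.0607, 0.0553 and 0.0454% of IP counts in animals 121, 140 and 17. All 8 tested mRNAs of that genome were lower, with log2 ratios from -3.78 to -2.25, and 3 others passed the count minimum only in input. mt-Co1, a subunit of cytochrome c oxidase, had 4394, 3940 and 3904 CPM in input and 318, 318 and 259 CPM in IP, a log2 ratio of -3.78 ± 0.10 (edgeR adjusted p = 1.27e-05). Both mitochondrial rRNAs were lower too, mt-Rnr2 at -3.90 ± 0.23 and mt-Rnr1 at -5.72 ± 0.81. Gm28437 and Gm28661, nuclear pseudogenes on chromosome 1 whose reads may be shared with mitochondrial genes, had ratios of -4.08 and -4.14.

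Nuclear genes for the same respiratory complexes went the other way. Of 78 tested nuclear-encoded respiratory chain genes 61 were higher and 2 lower, with a median log2 ratio of 0.93. Uqcrc1, a core subunit of complex III, had 163, 167 and 187 CPM in input and 623, 611 and 544 CPM in IP (1.78 ± 0.11), and Atp5b, the catalytic beta subunit of ATP synthase, had a ratio of 0.80 ± 0.09. Genes for mitochondrial ribosomal proteins, which are also nuclear, had 45 higher and 3 lower of 78 and a median of 0.75. The medians of nuclear and mitochondrial genes of these complexes kept their opposite signs under every alternative tried.

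**Figure D2:**
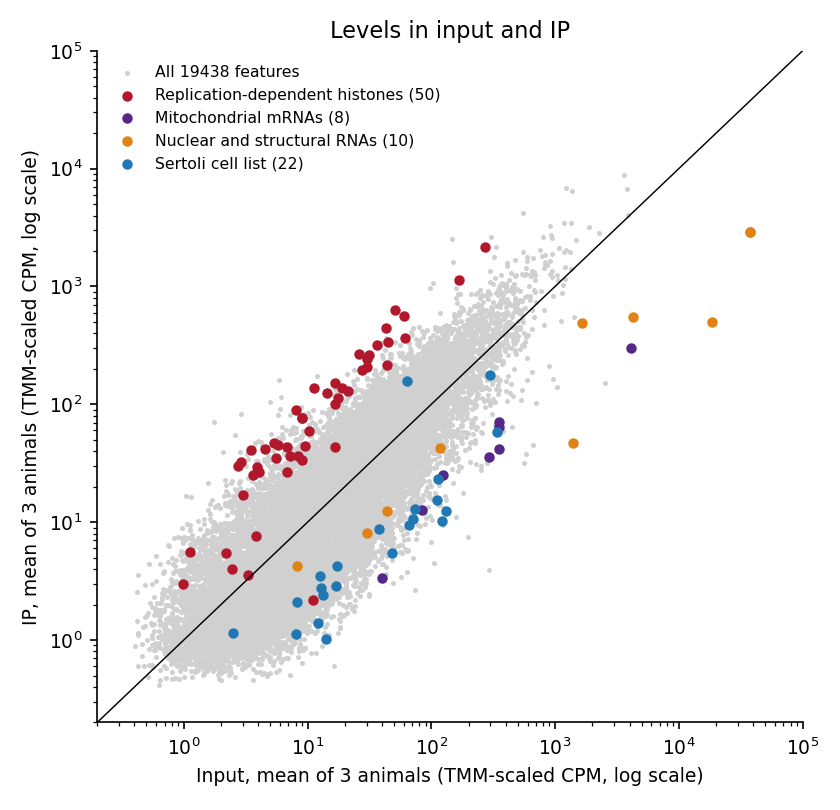
Mean level in IP against mean level in input over the 3 animals, both in TMM-scaled CPM on log axes, for all 19438 features (grey) and for 4 gene lists in colour, with the line of equal levels. Histone genes lay above the line except for Hist2h2be, and mitochondrial mRNAs, nuclear and structural RNAs and nearly all Sertoli cell genes lay below it.

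Replication-dependent histone mRNAs formed the list with the highest median. These mRNAs encode the bulk core histones and linker histones made in S phase, and unlike other mRNAs they end in a conserved stem-loop in place of a poly(A) tail. As a group they took 0.0835, 0.161 and 0.156% of input counts and 0.898, 1 and 0.722% of IP counts in animals 121, 140 and 17, so the input of animal 121 was the lowest and no IP overlapped an input. Of 60 genes on the list 50 were tested, and 45 of those were higher and 1 was lower, with a median log2 ratio of 2.86. The list of DNA replication factors, which act in the same phase of the cell cycle, had a median of 1.08, with 35 of 47 higher and none lower. A further 6 histone genes had 10 or more counts in all IPs but not in all inputs.

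The family medians were all positive. The median log2 ratio was 2.56 for 5 H1 genes, 3.57 for 7 H2A genes, 2.93 for 15 H2B genes, 2.67 for 10 H3 genes and 2.81 for 13 H4 genes. Hist1h1a, a linker histone (chr13:23763666-23764406, plus strand), had 221, 277 and 310 CPM in input and 2245, 2298 and 1939 CPM in IP (log2 ratio 3.01 ± 0.15, edgeR adjusted p = 6.08e-05). Hist1h4m, an H4 gene, had 18.9, 89.0 and 43.8 CPM in input and 614, 890 and 390 CPM in IP (3.81 ± 0.47). The inputs varied more between animals than the IPs did for this gene, but the groups did not overlap. Histone genes of a family are near copies of each other, so the division of reads between single members is less certain than the family values.

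The stem-loop was searched for as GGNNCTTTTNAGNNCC on the transcript strand, after the coding sequence, in the GENCODE M21 transcripts of 21864 protein-coding genes. These letters were found in 61 of them (0.279%), and 49 of those were tested. The search did not require the arms on both sides of the loop to pair. The arms pair throughout in Syncrip but not in Ucp2, so the letters alone do not make a stem-loop. Matches of some of the histone genes higher in IP are shown with 5 flanking bases (the match in capitals, fewer flanking bases where the transcript record ends). Some histone genes with larger ratios, such as Hist1h2ab at 3.81, are not shown. Matches of genes that hold the same letters but encode no histone follow.
Hist1h4m (chr13:21812124-21812147, plus strand): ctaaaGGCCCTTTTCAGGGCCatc
Hist1h4c (chr13:23698084-23698109, minus strand): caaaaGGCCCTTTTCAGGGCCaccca
Hist1h4i (chr13:22040961-22040986, minus strand): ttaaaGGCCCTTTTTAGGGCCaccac
Hist1h4j (chr13:21735432-21735457, plus strand): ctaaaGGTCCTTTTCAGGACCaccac
Hist1h2bj (chr13:22043633-22043658, plus strand): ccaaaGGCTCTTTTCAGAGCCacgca
Hist1h2ag (chr13:22042478-22042503, minus strand): acaaaGGCTCTTTTCAGAGCCaccta
Hist1h1t (chr13:23696520-23696545, plus strand): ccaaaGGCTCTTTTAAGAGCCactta
H2afx (chr9:44335235-44335260, plus strand): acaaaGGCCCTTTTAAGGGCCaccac
Syncrip (chr9:88453658-88453683, minus strand): atagtGGTTCTTTTCAGAACCttttt
Ucp2 (chr7:100499663-100499688, plus strand): ccaagGGACCTTTTCAGGACCttggc

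Among replication-dependent histones, 31 of the 32 tested genes with the motif were higher, with a median log2 ratio of 2.91 and a range from 0.76 to 3.81. The other 18 had transcript records without it, and 14 of these were higher, with a median of 2.79. Of the 11 tested genes other than histones that held the letters 5 were higher and 1 was lower, with a median of 0.25, beside 0.20 for all protein-coding genes tested. Both groups overlapped in range: Nova2 (1.62 ± 0.44), Agrn (1.33 ± 0.18) and Plekha5 (1.06 ± 0.14) lay above Hist2h4, the lowest histone with the motif, at 0.76, and 5031439G07Rik had a ratio of 0.64 ± 0.22. Syncrip, an RNA-binding protein gene, had a ratio of 0.38 ± 0.11 that turned negative with protein-coding library sizes, and Ucp2, which encodes a mitochondrial carrier, had one of -1.25 ± 0.20. Other single-exon protein-coding genes, with the replication-dependent histones left out, had 97 higher and 78 lower of 298 and a median of -0.06.

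Replacement and testis histone genes were higher too, and their values are given with and without the motif. H2afx encodes H2AX, the variant that is phosphorylated at DNA breaks and on the XY body. It had 25.9, 233 and 53.4 CPM in input and 1061, 1661 and 472 CPM in IP, a log2 ratio of 3.73 ± 0.63 (edgeR adjusted p = 0.0104). Its inputs varied widely between animals, yet each IP was above every input. Hist1h1t, the linker histone of spermatocytes and the other member of this list with the motif, had 306 to 331 CPM in input and 1556 to 2091 CPM in IP (2.46 ± 0.11). The 13 members without the motif had a median of 1.45, with 10 higher and none lower. Outside this list and that of replication-dependent histones, 4 more tested histone genes held the motif. All 4 were higher, with a median of 2.59 and a range from 1.15 to 3.07. H3f3b, which encodes the variant H3.3 from a polyadenylated mRNA, had a ratio of 1.45 ± 0.09, and H2afz one of 0.97 ± 0.16. Hist1h2ba, a testis H2B gene whose transcript record of 384 bases holds 381 coding bases, had 347, 721 and 591 CPM in input and 4358, 4766 and 3490 CPM in IP (2.98 ± 0.25).

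Features that overlap histone genes had ratios on both sides, such as -3.12 ± 0.44 for Gm17275, a lincRNA opposite H3f3a. Gm44335, annotated as a miRNA gene (chr9:44334965-44335105, minus strand), lies inside H2afx on the opposite strand. It had 0.839, 6.41 and 4.09 CPM in input and 51.1, 59.2 and 29.5 CPM in IP (log2 ratio 3.83 ± 0.69). The libraries were stranded, but the strand setting of the counting is not given in the sources used here, so reads of this feature and of H2afx cannot be told apart. Hist2h2be, the only replication-dependent histone gene lower in IP, had 18.3, 5.95 and 9.11 CPM in input and 1.26, 3.35 and 2.02 CPM in IP (-2.26 ± 0.61), at a level far below that of most genes of the list, and its transcript record of 2620 bases lacks the motif.

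Genes of the translation apparatus were mostly higher in IP, with plain exceptions. Of 84 cytosolic ribosomal protein genes 61 were higher and 6 lower, with a median log2 ratio of 0.79. Rpl22, which encodes the tagged protein, had 58.4, 64.9 and 63.2 CPM in input and 104, 99.2 and 97.5 CPM in IP (0.69 ± 0.11). Rpl4 had a ratio of 0.79 ± 0.08 and Rps24 one of 0.31 ± 0.09 that turned negative with protein-coding library sizes. The lower genes were Rpl5, Rps4x, Rpl41, Rplp0, Rps12 and Rps7, of which Rps7 turned positive on both TPM scales. Rplp0, the central protein of the ribosomal stalk, had 568, 495 and 712 CPM in input and 236, 253 and 257 CPM in IP (-1.24 ± 0.11), and Rps4x, an X-linked small subunit gene, had 55.2 to 64.4 CPM in input and 13.7 to 15.4 CPM in IP (-2.08 ± 0.15). Ribosomal protein genes have many processed pseudogenes that can share their reads, and the copies were not separated here. Rps23-ps1 and Rps6-ps4, processed pseudogenes named after ribosomal protein genes, had ratios of 0.73 ± 0.09 and 0.98 ± 0.09. Gm10123, the most abundant processed pseudogene tested, had a ratio of 2.34 ± 0.09, and its parent gene is not given in the sources used here.

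Cytosolic tRNA synthetases, which charge tRNAs with amino acids, had 21 higher and none lower of 23, with a median log2 ratio of 1.05. Initiation and elongation factors were more mixed, with 40 higher and 9 lower of 64 (62.5% and 14.1%) and a median of 0.67. These values lay near those of the quintile of protein-coding genes with the highest mean level, 64% and 16% with a median of 0.60. Eif3c, a core subunit of initiation factor eIF3, had a ratio of 1.21 ± 0.09, and the abundant elongation factor genes Eef1a1 and Eef2 had ratios of 0.34 ± 0.08 and 0.27 ± 0.08. The last 2 values turned negative with library sizes taken from protein-coding genes.

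Housekeeping complexes of RNA and protein handling were among the most uniform lists. Of 50 splicing protein genes (SR proteins, hnRNPs and snRNP proteins) 44 were higher and none lower, with a median log2 ratio of 1.29, and Hnrnpk had 457, 482 and 492 CPM in input and 1312, 1193 and 1186 CPM in IP (1.37 ± 0.09). Proteasome genes had 32 higher and none lower of 37 and a median of 1.12, with Psmc3, an ATPase of the regulatory particle, at 1.3 ± 0.11. Nucleoporin genes had 19 higher and 1 lower of 21 and a median of 0.99. Chaperonin genes, which encode the CCT ring, had 7 higher and 1 lower of 8, with Cct8 at 1.44 ± 0.09. Genes of the endoplasmic reticulum, where proteins enter the secretory pathway, were more mixed, with 22 higher and 7 lower of 36 (61.1% and 19.4%). The quintile of protein-coding genes with the highest mean level had 64% and 16%. The median of the endoplasmic reticulum list was 0.88, with quartiles of -0.01 and 1.34. Among the most abundant genes of that list, Hspa5, the lumenal chaperone BiP, had a ratio of 1.70 ± 0.10 and Calr one of 1.40 ± 0.10.

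**Figure D3:**
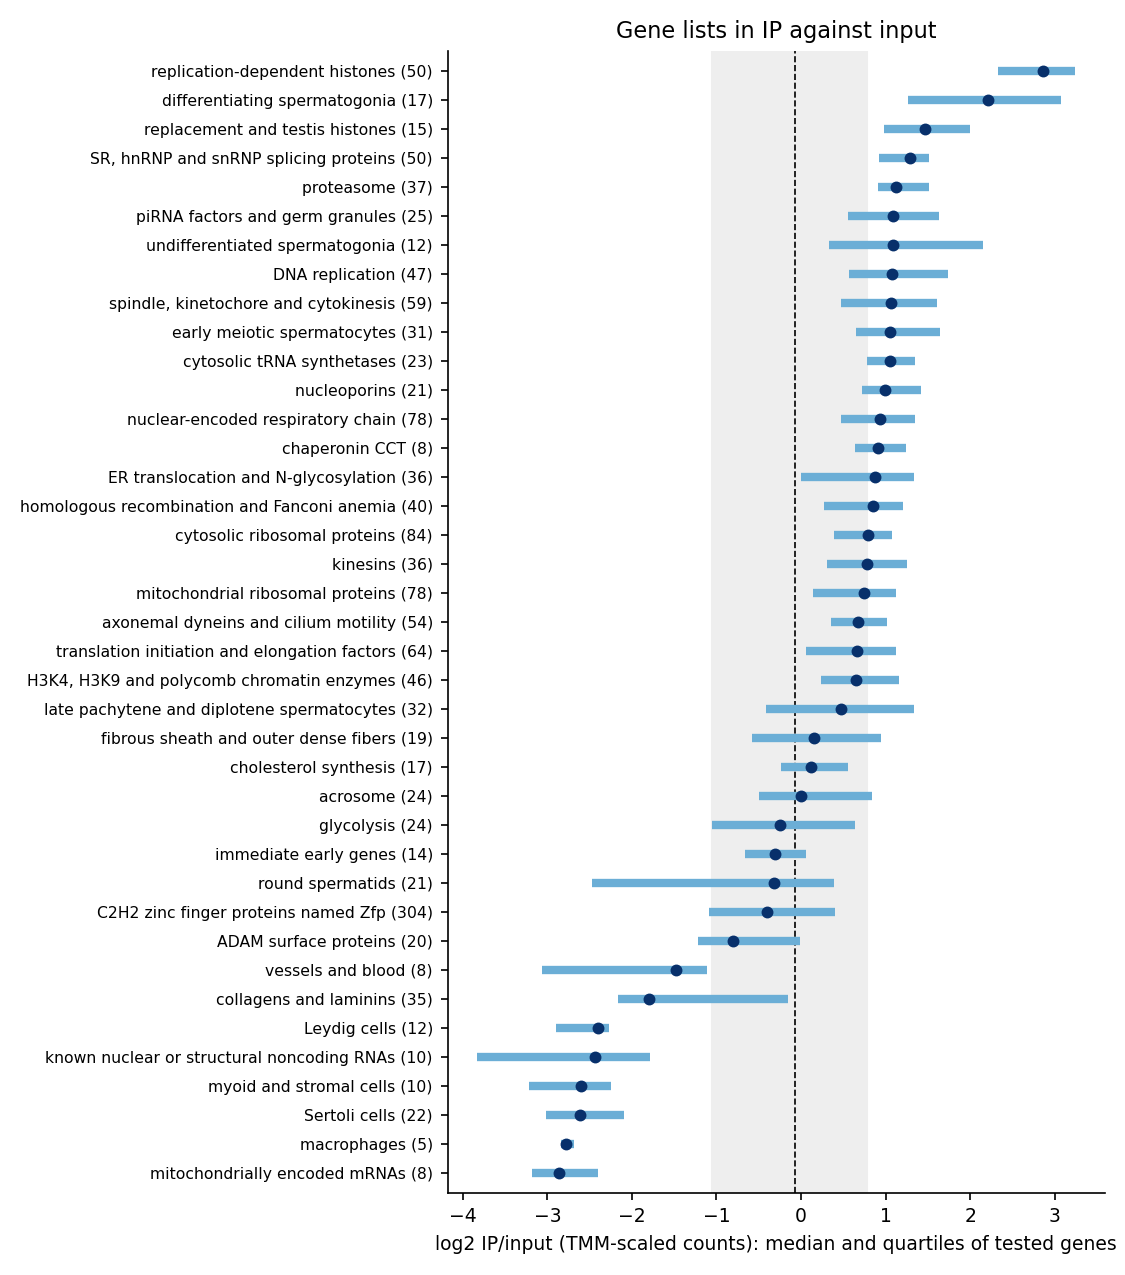
Median (dark point) and quartiles (blue bar) of the log2 IP/input ratio over the tested genes of each list, with the number of tested genes in parentheses, ordered by median. The dashed line and grey band give the median, -0.07, and the quartiles of all 19438 features, and lists from the replication-dependent histones at 2.86 to the mitochondrially encoded mRNAs at -2.86 are shown.

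Cell cycle and meiotic genes were higher as groups. Spindle, kinetochore and cytokinesis genes had 44 higher and 3 lower of 59, with a median log2 ratio of 1.07, and Top2a, which untangles chromosomes, had a ratio of 1.18 ± 0.09. Pcna, the sliding clamp of DNA polymerases, had 107, 110 and 124 CPM in input and 469, 411 and 443 CPM in IP (1.96 ± 0.10). Homologous recombination and Fanconi anemia genes had 24 higher and 1 lower of 40 and a median of 0.85. Within that list Mdc1, which binds phosphorylated H2AX and is central to the XY body, had 406, 350 and 340 CPM in input and 996, 826 and 891 CPM in IP (1.31 ± 0.08, edgeR adjusted p = 6.85e-05), whereas Atr, the kinase acting in the same pathway, had 1335 CPM ± 37.6 in input and 1417 CPM ± 144 in IP (SD, n = 3) and did not pass (0.08 ± 0.09, edgeR adjusted p = 0.461). Chromatin enzymes for H3K4, H3K9 and polycomb marks had 27 higher and 1 lower of 46, with a median of 0.65.

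The piRNA pathway, which silences transposons in germ cells through PIWI proteins and small RNAs, had 20 genes higher and 3 lower of 25, with a median log2 ratio of 1.09. Piwil1, the PIWI protein of pachytene spermatocytes, had 275, 400 and 331 CPM in input and 2262, 2186 and 1986 CPM in IP (2.69 ± 0.13). Piwil2 had a ratio of 1.52 ± 0.08. The lower genes were Ddx4, Tdrd3 and Mael, of which Mael turned positive on both TPM scales. Ddx4, the germ cell helicase VASA, had 127, 107 and 211 CPM in input and 25.4, 52.4 and 59.0 CPM in IP (-1.73 ± 0.26). Ddx4 and Piwil1 proteins meet in the same germ granules, and their transcripts lay on opposite sides in all 3 animals. Ddx4 was picked after its values were seen, so that contrast was fixed by the choice.

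Adad2, which encodes an RNA-binding protein of spermatocyte granules and is the gene mutated in the other arm of the study, had 22.3, 24.7 and 27.2 CPM in input and 101, 109 and 98.0 CPM in IP (chr8:119612747-119616924, plus strand; log2 ratio 2.06 ± 0.13, edgeR adjusted p = 6.94e-05). Stra8, whose promoter drives Cre, had 13.9, 15.2 and 14.6 CPM in input and 90.4, 83.3 and 66.9 CPM in IP. The list of differentiating spermatogonia to which it belongs had 13 higher and 1 lower of 17, with a median log2 ratio of 2.21. The neighbouring stages had medians of 1.09 for undifferentiated spermatogonia, with 9 higher and 2 lower of 12, and 1.06 for early meiotic spermatocytes, with 25 higher and 2 lower of 31. Differences between these lists were not tested. Kit, the receptor that marks these cells, rose by a log2 ratio of 3.16 ± 0.27, and Uhrf1, which maintains DNA methylation, by 1.79 ± 0.09, whereas Meioc, which sustains meiotic prophase, had a ratio of 0.12 ± 0.09 and did not pass.

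Later germ cell transcripts split in both directions. The late pachytene and diplotene list had 17 higher and 8 lower of 32 (53.1% and 25%), beside 36.3% and 22.8% of all protein-coding genes. Its median log2 ratio of 0.48 came to -0.01 with library sizes taken from protein-coding genes. Hspa2, a heat shock protein of spermatocytes, had 906, 912 and 929 CPM in input and 3548, 3375 and 2922 CPM in IP (1.84 ± 0.09), and Tdrd6, a Tudor protein of germ granules, had 1184, 982 and 1035 CPM in input and 2430, 1874 and 2022 CPM in IP (0.98 ± 0.08). Pgk2, the phosphoglycerate kinase of later germ cells, had 122, 108 and 148 CPM in input and 14.8, 8.83 and 15.7 CPM in IP (-3.29 ± 0.15). In each animal the Hspa2 and Tdrd6 transcripts were higher in IP and the Pgk2 transcript was lower, with no overlap between the fractions for any of the 3 genes. Pgk2 was picked after its values were seen, and 7 of the 32 genes of the list were not called in either direction.

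Some genes of sperm surface and acrosome proteins were far lower in IP. Crisp2, a cysteine-rich protein of the acrosome, had 647, 650 and 687 CPM in input and 53.6, 43.1 and 37.7 CPM in IP (log2 ratio -3.90 ± 0.14, edgeR adjusted p = 4.67e-05). Adam3 and Adam5, sperm surface proteins encoded side by side on chromosome 8, had ratios of -2.28 ± 0.10 and -2.09 ± 0.12. The list of ADAM genes had 12 lower and 4 higher of 20 and a median of -0.80, and Adam2 had a ratio of 0.14 ± 0.08 and did not pass. Acrosome genes as a list had 7 higher and 6 lower of 24 (29.2% and 25%), beside 36.3% and 22.8% of all protein-coding genes. The median of the list was 0.00, and Acrbp, a binding protein of proacrosin, had a ratio of 1.82 ± 0.10.

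Of the 37 round spermatid genes 12 had 10 or more counts in all inputs but not in all IPs and were not tested, and of the 21 tested 8 were lower and 3 higher, with a median log2 ratio of -0.33 that turned positive under 3 alternatives (a minimum of 50 counts and both TPM scales). Papolb, a testis poly(A) polymerase gene, had 294, 263 and 286 CPM in input and 45.5, 21.7 and 33.4 CPM in IP (-3.13 ± 0.19). It lies within Radil on the same strand, and Radil had a ratio of 2.53 ± 0.12. Tssk1, a kinase of elongating spermatids, had a ratio of -3.30 ± 0.43, and Akap3, an anchor of the sperm tail, one of -1.90 ± 0.16. Both genes were picked after their values were seen, and 10 of the 21 tested genes of the list were not called in either direction. Dkkl1, which encodes an acrosome protein, was on the other side, with 371 to 399 CPM in input and 734 to 996 CPM in IP (1.13 ± 0.12).

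**Figure D4:**
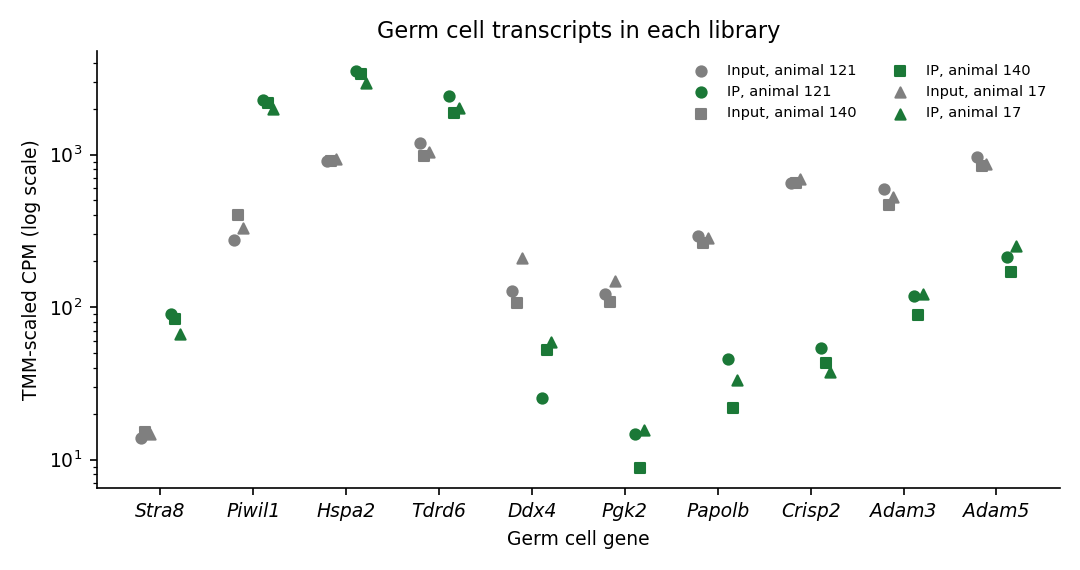
Level in each library (TMM-scaled CPM, log scale) of 10 germ cell genes in input (grey) and IP (green), with a marker shape for each of the 3 wild-type animals. Stra8, Piwil1, Hspa2 and Tdrd6 were higher in every IP than in any input, and Ddx4, Pgk2, Papolb, Crisp2, Adam3 and Adam5 were lower in every IP than in any input. Ddx4, Pgk2 and Adam3 were picked after their values were seen.

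Motility genes were not low as a class. Axonemal dynein and cilium genes, which build the sperm tail's motor, had 39 higher and 3 lower of 54 and a median log2 ratio of 0.67. Dnah8, a dynein heavy chain, had 3826 CPM ± 310 in input and 6772 CPM ± 234 in IP (SD, n = 3; 0.83 ± 0.08). Kinesins had 25 higher and 3 lower of 36. Fibrous sheath and outer dense fiber genes had 8 higher and 6 lower of 19, and their median of 0.15 changed sign with upper-quartile factors, unscaled totals and protein-coding library sizes. Odf2, the main outer dense fiber gene, had a ratio of -0.37 ± 0.08 that turned positive on both TPM scales, and Tekt1, a tektin of the axoneme, one of 1.28 ± 0.10.

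Glycolysis genes had 8 higher and 11 lower of 24, with a median log2 ratio of -0.25 that turned positive on both TPM scales. Ldhc, the germ cell lactate dehydrogenase, had 1178 CPM ± 197 in input and 1954 CPM ± 208 in IP (0.74 ± 0.12), and Ldha, the form found in most cells, had a ratio of -0.15 ± 0.09 and did not pass. Cholesterol synthesis genes had 3 higher and 4 lower of 17. Zinc finger genes with the name Zfp had 57 higher and 103 lower of 304, with a median of -0.40 that was likewise positive on the TPM scales, and Zfp541, a gene of meiotic chromatin, had a ratio of 0.62 ± 0.08. Immediate early genes, which respond fast to stimulation and handling, had 2 higher and 3 lower of 14.

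Somatic transcripts were low in IP but not absent. The Sertoli cell list took 0.161, 0.179 and 0.188% of input counts and 0.0404, 0.0467 and 0.0610% of IP counts in animals 121, 140 and 17, and 21 of 22 tested genes were lower, with a median log2 ratio of -2.62. All 12 tested Leydig, 10 myoid and stromal and 5 macrophage genes were lower, with medians of -2.41, -2.61 and -2.78, and 6 of 8 genes of vessels and blood were lower. The median of that last list was -1.48, and only 1 of its genes, with a ratio of 0.62, was left at a minimum of 50 counts. The IP of animal 17 held the highest share of each of these 5 lists among the IPs: for myoid and stromal genes it held 0.0242%, beside 0.0074 and 0.0127% in animals 121 and 140. Clu, a secreted chaperone abundant in Sertoli cells, had 331, 328 and 362 CPM in input and 29.8, 35.2 and 109 CPM in IP (-2.81 ± 0.40). Tjp1, the tight junction scaffold ZO-1, was the only Sertoli list gene higher in IP, with 61.1 to 69.1 CPM in input and 135 to 176 CPM in IP (1.31 ± 0.11).

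The largest called ratios of protein-coding genes at a mean log2 CPM of at least 5 with no overlap between fractions were led by histones. Of the 12 highest, 9 were histone genes, and the others were Lclat1, a lysophospholipid acyltransferase gene (3.50 ± 0.15), Gm49369 (3.46 ± 0.23) and Rbmxl2, a testis RNA-binding protein gene (3.29 ± 0.41). The 12 lowest included the Sertoli cystatin genes Cst9 and Cst12, Selenop, which encodes a selenium carrier, the collagen gene Col3a1, Crisp2, mt-Co1, and Tmsb4x, a small actin-binding protein gene with 102 to 107 CPM in input and 2.72 to 6.92 CPM in IP (-4.61 ± 0.27). The lowest of these was 1700017D01Rik, with 67.3 to 78.5 CPM in input and 1.48 to 3.39 CPM in IP (-4.85 ± 0.31). Among assembled transcripts, TCONS_00091521 had 225, 150 and 63.9 CPM in input and 3208, 2466 and 1871 CPM in IP (4.25 ± 0.24), and the tables give it no gene name.

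Length of the 3′ untranslated region (3′ UTR) went with the ratio across protein-coding genes. For 12305 of the 12320 genes the annotated coding transcript with the highest mean TPM was placed on the GENCODE M21 annotation and the genes were divided into quintiles of 3′ UTR length. In the quintile with the shortest 3′ UTRs (at most 146 bases) 41.7% of genes were higher and 18.3% lower, with a median log2 ratio of 0.39. In the quintile with the longest (1775 bases or more) 21.5% were higher and 34.7% lower, with a median of -0.24. The quintiles between had medians of 0.48, 0.36 and 0.13. With histone and somatic list genes left out, 41.2% of the shortest and 21.5% of the longest quintile were higher.

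Level also went with the ratio, and the association with 3′ UTR length was present within each quintile of level. Spearman's rho across genes was 0.27 between mean log2 CPM and log2 IP/input, and -0.20 between 3′ UTR length and log2 IP/input, as descriptions, since genes of the same libraries are not independent. Within the lowest quintile of level the shortest and longest 3′ UTRs had medians of -0.03 and -0.69, and within the highest quintile 0.74 and 0.22. 5′ UTR length had a weaker gradient, with 40.5% of genes higher in the shortest quintile and 28.0% in the longest. Coding length went the other way, from 32.6% higher in the shortest quintile to 43.2% in the longest, and the GC content of the coding sequence went from 26.7% higher in the lowest quintile to 42.2% in the highest. The part of library preparation and of cell type in these gradients was not tested.

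**Figure D5:**
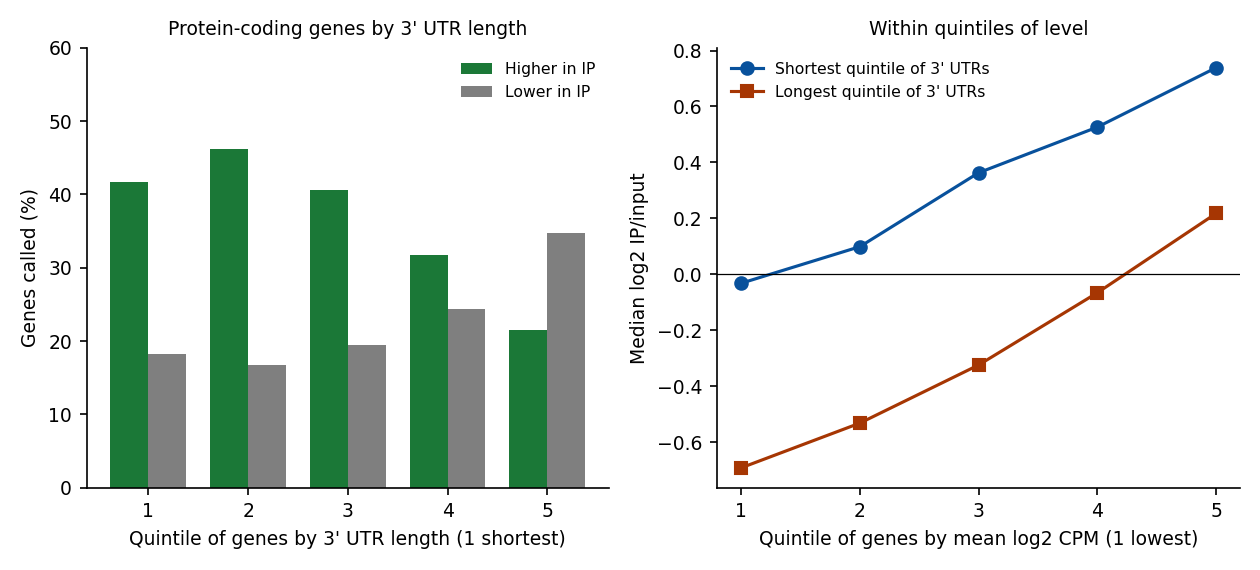
Left, percent of tested protein-coding genes called higher (green) or lower (grey) in IP by quintile of 3′ UTR length. Right, median log2 IP/input ratio of the genes with the shortest (blue) and longest (brown) quintile of 3′ UTRs within each quintile of mean level, where the shortest lay above the longest in all 5 quintiles.

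Isoform classes of protein-coding genes differed less than gene classes. Transcripts annotated as retained introns took 3.76, 3.51 and 3.02% of the counts of protein-coding genes in input and 2.66, 2.80 and 2.60% in IP, with no overlap. Transcripts annotated as targets of nonsense-mediated decay took 2.77% ± 0.0748 in input and 2.89% ± 0.0433 in IP (SD, n = 3). X-linked protein-coding genes, which are silenced in pachytene spermatocytes, had 29.4% higher and 25% lower of 476, beside 36.7% and 22.6% of 11799 autosomal genes. Both medians, 0.14 and 0.21, turned negative with upper-quartile factors, unscaled totals, protein-coding library sizes and no count minimum, and the X-linked one also with edgeR's filterByExpr.

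In the Adad2 M/M mice, each list or gene class with 3 or more features in a joint fit had a median of the same sign as in wild type, and the Leydig, macrophage and vessel lists, with fewer, were not compared. In that fit, of all 14 libraries to the 9771 features with 10 or more counts in every library, none of the IP/input ratios differed between genotypes at an adjusted p under 0.05 by edgeR's interaction test (0%), with 150 higher and 157 lower in wild type at an unadjusted p under 0.05 (3.14%), and DESeq2 called 4 higher and 1 lower. The unadjusted counts depended on single animals, from 54 higher and 83 lower without wild-type animal 17 to 490 and 212 without mutant animal 12, and none passed the adjusted threshold when any animal was left out. The median log2 ratio of replication-dependent histones was 2.61 in wild type and 2.56 in mutant, that of mitochondrially encoded mRNAs was -3.06 and -2.94, and that of lincRNAs was -1.60 and -1.30. The early meiotic list had 0.70 and 1.19, and the Sertoli list -2.79 and -3.73, over 27 and 7 genes. The joint fit has its own count filter and scaling factors, and its wild-type medians differ from those given above. Its medians are to be read against those of all 9771 features, -0.003 in wild type and 0.019 in mutant. The missed threshold does not show that the genotypes were alike.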

How the data were processed

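Ribosome-bound and input RNA from testes of 21 dpp males was sequenced after rRNA depletion with a stranded kit, and per the study's methods the authors removed rRNA reads, trimmed the rest to equal length and quantified them with RSEM 1.3.3 on GRCm38 transcripts joined to assembled testis transcripts. The deposited tables give per transcript an expected count and a TPM value, both made by the authors with RSEM. Whether RSEM used strand is not given in the sources used here.

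Expected counts were summed to genes with GENCODE M21, spike-ins were removed and counts were rounded. Features with 10 or more counts in all 6 wild-type libraries were tested with edgeR 4.0.16 (R 4.3.3, TMM factors, quasi-likelihood test, two-sided) with the animal as a block, as input and IP came from the same animal, and p-values were adjusted by Benjamini-Hochberg over all features. The SE of a log2 ratio is its size divided by the square root of the F statistic. Deviations from the group means correlated at 0.0703, 0.109 and 0.0654 between input and IP of an animal and at -0.107 to 0.0397 between animals. DESeq2 1.42.0 and limma 3.58.1 on log2(TPM + 1) and log2(TPM + 0.1) were alternatives. The fit was tested on simulated data, where more unchanged features were called than the threshold allows. The calls given here may therefore hold more false ones than that threshold implies. The simulation changed far fewer features than were called here and held no animal effect, so the size of such an excess in these data was not measured. Each of the 3 animals gave 1 pair, so SEs rest on 3 differences and on the spread shared across features.

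The gene lists and members were chosen with earlier results of these data known. Genes were named by rule: Rpl22, Stra8 and Adad2, up to 3 members of each list or noncoding class with the highest mean CPM, and the 12 called protein-coding genes per direction with the largest ratio among those without overlap whose mean level was 5 or more in log2 CPM. Kit, Ddx4, Pgk2, Tssk1, Akap3, Adam3, H2afz, Hist2h2be, Syncrip, Ucp2, Nova2, Agrn, Plekha5, 5031439G07Rik, Hist2h4, Tdrd3, Mael, the lower ribosomal protein genes other than Rplp0, and genes overlapping a named gene were chosen after their values were seen.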

Additional observations from a re-analysis of the deposited data

How the results depend on the processing

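Without the replicate block, which pairs the libraries of an animal, 5633 features were higher and 5669 lower, beside 5576 and 5724 with it. Beside an animal left out, the counts moved by over 1.5 times in these cases: higher features came to 3371 with protein-coding library sizes, 8513 with limma on log2(TPM + 1) and 8411 with log2(TPM + 0.1), and lower features came to 8608, 2351 and 2263 in the same order, to 2222 with filterByExpr, to 1849 with no count minimum and to 3491 at an adjusted p under 0.01. Leaving out each animal in turn gave 4394 to 5281 higher and 3726 to 5146 lower, the lowest of both without animal 121, whose absence also moved the lower count by over 1.5 times. For the difference between genotypes, DESeq2 called 4 higher and 1 lower in wild type and edgeR 0. With protein-coding library sizes the log2 ratios of Rps24, Eef1a1, Eef2 and Syncrip became -0.18, -0.16, -0.22 and -0.11. On the scales of log2(TPM + 1) and log2(TPM + 0.1), those of Odf2 became 0.22 and 0.22, of Mael 0.062 and 0.063, and of Rps7 0.10 and 0.11. The TPM settings change the unit, the pseudocount and the test together, and the cause of these moves was not tested. Of the values of 103 of the named genes under alternatives, 1525 kept their direction and side of the threshold, 83 lost the call, 20 gained it and 10 reversed. Depth limits the transcripts poorest in IP, since 3769 annotated genes failed the count minimum in IP alone.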
